A study of Mus musculus with 12 samples.

Results

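Fatty acid synthesis and desaturation enzymes are described here by 10 genes, Acly, Acss2, Me1, Acaca, Fasn, Elovl6, Scd1, Scd2, Fads1 and Fads2, in SCC7 mouse carcinoma cells kept in media conditioned by macrophages. The genes were taken by name from a list of lipogenic enzymes, which was drawn up with earlier results of these data known. All 10 were found among the 55487 genes of the count table, and all 10 were among the 14509 genes that passed the filter on low counts.

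RNA sequencing was done on the mouse squamous carcinoma line SCC7, of wild-type genotype, after 24 h in 1 of 4 conditioned media. Each medium came from macrophages derived from mouse bone marrow that had been kept for 24 h in a set way. For TAM CM, named for tumour-associated macrophages, the macrophages were kept in 75% medium conditioned by SCC7 cells. Interleukin-4 at 20 ng/ml was used for M2 CM, interferon-gamma at 20 ng/ml for M1 CM, and control medium (DMEM) for M0 CM. Each group had 3 libraries, 12 in all, with total counts from 18996937 to 22596630. Removal of the cytokines or of the SCC7 medium before collection is not stated in the sources used here, and SCC7 cells in medium without macrophage products were not analysed here. No label says that libraries of the same medium were separate cultures, so p-values cover only the variation among these libraries, which could be technical.

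De novo lipogenesis makes fatty acids from acetyl-CoA, which Acly forms from citrate and Acss2 from acetate. Acaca carboxylates acetyl-CoA to malonyl-CoA, Fasn builds palmitate from both with reducing power from NADPH, which Me1 helps supply, and Elovl6 lengthens palmitate to stearate. Scd1 and Scd2 place a delta-9 double bond in saturated fatty acids, and Fads1 and Fads2 are the front-end desaturases of polyunsaturated fatty acid synthesis. Many of these genes are known targets of the sterol regulatory element-binding proteins (SREBPs), transcription factors held in the endoplasmic reticulum when sterols are plentiful.

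Levels are CPM, counts scaled to a common library total, after adjustment by the trimmed mean of M values (TMM), shown per library or as mean ± SD (n = 3 in each group). Differences are log2 fold changes with a standard error (SE). A gene was called when its Benjamini-Hochberg adjusted p, over all genes tested, was under 0.05 in edgeR's quasi-likelihood test. The comparisons with M0 CM share the M0 CM libraries, so their values are not independent of each other. In RNA from a whole culture, fewer cells of a type and less RNA per cell cannot be told apart.

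The SCC7 label was set against marker genes. The keratins Krt8 and Krt18 were expressed in every group, while the epithelial genes Epcam, Cdh1, Krt5 and Krt14 were at or near 0 in all 4. Of the 15 macrophage markers, C1qa, C1qb and Tyrobp had no counts in any library, while Csf1r and Ptprc were under 1 CPM with some counts in every group. Over the 3 libraries of a group, Cd68 had 438 counts in M1 CM, 315 in M2 CM, 171 in TAM CM and 249 in M0 CM. Mrc1 had 162 counts in M1 CM, 119 in M2 CM, 44 in TAM CM and 44 in M0 CM. Others went the other way in M1 CM against M0 CM, such as Mertk (249 against 389 counts) and Lyz2 (26 against 53). The summed macrophage list ran from 43.6 to 54.0 CPM in TAM CM, 28.3 to 31.6 CPM in M2 CM, 37.0 to 44.1 CPM in M1 CM and 28.3 to 30.1 CPM in M0 CM, most of it Cd14; 11 of the 15 were under 1 CPM in TAM CM and 12 in M0 CM. The squamous list of 7 genes summed to 88.8 to 99.0 CPM in TAM CM, 678 to 757 CPM in M2 CM, 166 to 169 CPM in M1 CM and 358 to 389 CPM in M0 CM. Fibroblast markers, 6 in all, summed to 1075 to 1124 CPM in TAM CM, 1304 to 1327 CPM in M2 CM, 1225 to 1311 CPM in M1 CM and 2145 to 2275 CPM in M0 CM. Most of that sum was Col1a1 and Col1a2, and the list went both ways, with Pdgfra at 320 CPM in TAM CM and 236 CPM in M0 CM and Dcn at 16.9 CPM in TAM CM and 2.82 CPM in M0 CM on average. The part of these markers in the results was not tested. The 6 adipocyte markers summed to at most 0.271 CPM in any library. The label of M2 CM replicate 3 names a melanoma, where the other 11 name squamous carcinoma. Its group's 8 melanocyte markers summed to 5.57 to 7.34 CPM, nearly all of it Mitf, against 7.21 to 9.31 CPM in M0 CM. Without this library the number of the 10 genes called was the same in all 6 comparisons.

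Promoter sequence is shown for the 3 enzyme genes with the largest folds for which a window was matched (Fads2, Acss2 and Elovl6), and for Fasn, whose change was smaller. Each is the 250 bases before the RefSeq start in GRCm38.p6, read 5′ to 3′ on the strand of the gene. Capitals mark matches on either strand to the GC box GGGCGG (bound by Sp1 and related factors) or the NF-Y box CCAAT. The positions are chr19:10101504-10101753 on the minus strand for Fads2, chr2:155517793-155518042 on the plus strand for Acss2, chr3:129532136-129532385 on the plus strand for Elovl6 and chr11:120824548-120824797 on the minus strand for Fasn.
Fads2: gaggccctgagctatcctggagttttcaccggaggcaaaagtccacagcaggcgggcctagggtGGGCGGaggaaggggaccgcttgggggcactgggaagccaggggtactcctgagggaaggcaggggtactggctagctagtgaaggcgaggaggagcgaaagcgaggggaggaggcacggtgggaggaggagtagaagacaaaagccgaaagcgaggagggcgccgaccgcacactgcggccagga
Acss2: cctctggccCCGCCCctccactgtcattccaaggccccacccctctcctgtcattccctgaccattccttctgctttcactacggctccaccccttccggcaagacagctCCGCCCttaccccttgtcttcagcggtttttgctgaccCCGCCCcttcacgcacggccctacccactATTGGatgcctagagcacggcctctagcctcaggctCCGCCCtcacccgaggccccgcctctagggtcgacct
Elovl6: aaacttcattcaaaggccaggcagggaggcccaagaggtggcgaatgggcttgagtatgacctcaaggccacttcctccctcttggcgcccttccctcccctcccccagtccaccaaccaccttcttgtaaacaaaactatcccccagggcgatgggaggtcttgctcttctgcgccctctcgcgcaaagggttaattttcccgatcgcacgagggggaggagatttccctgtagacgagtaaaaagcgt
Fasn: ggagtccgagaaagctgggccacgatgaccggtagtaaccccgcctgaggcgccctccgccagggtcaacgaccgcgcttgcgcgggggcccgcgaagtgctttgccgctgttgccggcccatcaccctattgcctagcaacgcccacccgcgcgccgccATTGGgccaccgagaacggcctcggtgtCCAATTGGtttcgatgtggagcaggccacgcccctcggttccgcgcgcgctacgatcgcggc
The Acss2 window held 4 GC box matches and 1 NF-Y box match, that of Fads2 held 1 GC box match, and that of Fasn held 3 NF-Y box matches, of which a pair on opposite strands overlap. No searched motif matched in the Elovl6 window. Windows were matched for 7 of the 10 genes, not for Scd1, Scd2 and Fads1, and gave 8 windows because Me1 has a pair of starts. The Acaca window (chromosome 11, 84195188 to 84195437) and a Me1 window (chromosome 9, 86687278 to 86687527) lie inside the annotated gene, away from its 5′ end. The sterol regulatory element TCACNCCAC, searched on both strands, matched in 0 of these 8 windows and in 1.05% of 32851 mouse promoter windows of the same length. The E-box CACGTG matched in none of the 8 and in 6.02% of all windows. For comparison, 32.7% of all windows held a GC box and 33.8% an NF-Y box. These are matches of letters and say nothing of binding. With 8 windows, an absence of so rare a motif as the sterol regulatory element says little.

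Of the enzyme genes 9 were at their lowest level in TAM CM, and Me1 was at its highest there. Against M0 CM, 9 of the 10 fell in TAM CM and 1 rose. Among all genes tested, 34.9% were lower and 35.1% higher in this comparison. With library sizes alone, without TMM factors, 5891 genes were lower and 4300 higher, against 5067 lower and 5089 higher with them. The median log2 fold change of the 10 genes was -1.11, beside 0.00 for all genes tested. The largest folds were those of Scd2, Fads2, Acss2 and Elovl6, and the smallest of the 9 falls was that of the desaturase Fads1. All 10 genes had values in TAM CM that did not overlap those in M0 CM, as did 73.1% of all genes tested. Taken as a share of each library's counts, the 10 genes together held 0.159% to 0.167% in TAM CM, 0.425% to 0.438% in M2 CM, 0.307% to 0.327% in M1 CM and 0.454% to 0.476% in M0 CM.

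**Figure D1:**
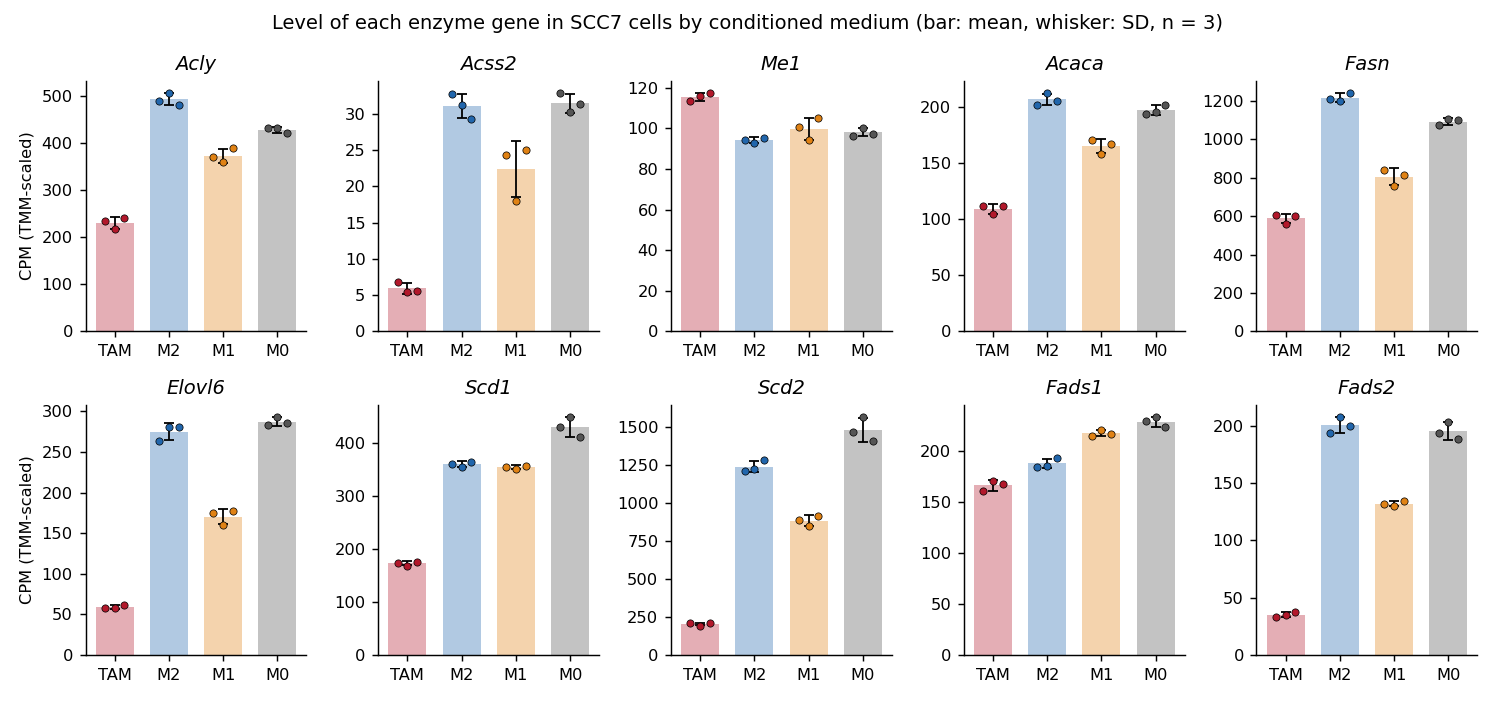
Level of each of the 10 enzyme genes in CPM (vertical axes, each from 0) in TAM CM, M2 CM, M1 CM and M0 CM. Points are libraries, bars means and whiskers SD of 3 libraries; 9 genes are lowest in TAM CM, and Me1 is highest there, at 115 CPM against 98.1 CPM in M0 CM.

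Of the acetyl-CoA genes, Acss2 had the larger change. Acss2, the cytosolic and nuclear acetyl-CoA synthetase (ENSMUSG00000027605, chromosome 2, 155517948 to 155585724 in mm10), was at 6.82, 5.47 and 5.55 CPM in the TAM CM libraries, against 32.9, 30.3 and 31.3 CPM in the M0 CM libraries. The M2 CM libraries, at 32.7, 31.2 and 29.3 CPM, overlapped those of M0 CM. In M1 CM it was at 24.3, 17.9 and 25.0 CPM, so replicate 2 was well under the other libraries of its group. Acss2 was 5.33-fold lower in TAM CM than in M0 CM (log2 fold change -2.41, SE 0.11; edgeR quasi-likelihood adjusted p = 4.87e-19), and lower in M1 CM (-0.49, SE 0.09). It had the fewest counts of the 10 genes, from 109 to 125 per TAM CM library and 609 to 774 per M0 CM library. Its exons overlap those of Gss by 395 bases, Acss2os by 335 and Ggt7 by 197 on the opposite strand, and no source used here states the strand setting of the counting. Gss was at 53.0 ± 1.48 CPM in TAM CM and 32.2 ± 0.995 CPM in M0 CM, the opposite direction to Acss2.

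Acly, ATP citrate lyase (ENSMUSG00000020917, chromosome 11, 100476353 to 100528000), was at 235, 217 and 240.3 CPM in TAM CM, 490.4, 507 and 482 CPM in M2 CM, 370.2, 359 and 389 CPM in M1 CM, and 433, 433 and 422 CPM in M0 CM. No pair of groups overlapped. Acly fell 1.86-fold in TAM CM (log2 fold change -0.90, SE 0.04; edgeR quasi-likelihood adjusted p = 1.28e-27). It also fell in M1 CM (-0.20, SE 0.03) and rose in M2 CM (0.20, SE 0.03), each against M0 CM.

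Me1, the cytosolic malic enzyme that yields NADPH (ENSMUSG00000032418, chromosome 9, 86581371 to 86695953), was at 113, 116 and 117 CPM in TAM CM, against 96.5, 100.4 and 97.3 CPM in M0 CM. The M2 CM libraries had 94.4, 92.8 and 95.5 CPM and the M1 CM libraries 101, 94.3 and 105 CPM. The TAM CM libraries stood above all the others. Me1 rose 1.18-fold in TAM CM against M0 CM (log2 fold change 0.24, SE 0.04; edgeR quasi-likelihood adjusted p = 7.87e-07), a change that did not pass a test against a 1.5-fold change. Differences between M2 CM, M1 CM and M0 CM did not pass the test, the widest being -0.08 (SE 0.04) for M2 CM against M1 CM.

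Fasn and Acaca, the genes of palmitate synthesis, fell by similar amounts in TAM CM. Fasn, fatty acid synthase (ENSMUSG00000025153, chromosome 11, 120805846 to 120824547), was at 604, 560.2 and 601 CPM in TAM CM and at 1074, 1106 and 1100.5 CPM in M0 CM. It was at 1212, 1200.2 and 1243 CPM in M2 CM and 843, 758 and 817 CPM in M1 CM, again with no overlap between any groups. Fasn fell 1.86-fold in TAM CM (log2 fold change -0.89, SE 0.03; edgeR quasi-likelihood adjusted p = 4.52e-27) and 1.36-fold in M1 CM, and rose 1.11-fold in M2 CM.

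Acaca, acetyl-CoA carboxylase 1 (ENSMUSG00000020532, chromosome 11, 84129672 to 84401651), was at 112, 104 and 112 CPM in TAM CM, 202, 213 and 206 CPM in M2 CM, 171, 158 and 167 CPM in M1 CM, and 194, 196 and 202 CPM in M0 CM. M2 CM and M0 CM overlapped for this gene and the other pairs did not. The log2 fold change of Acaca in TAM CM was -0.85 (SE 0.04), close to those of Acly and Fasn. That in M1 CM was -0.26 (SE 0.04), and in M2 CM the value was 0.07 (SE 0.04; edgeR quasi-likelihood adjusted p = 0.137), not called.

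Elovl6, the elongase of palmitate (ENSMUSG00000041220, chromosome 3, 129532355 to 129638495), was at 57.9, 57.6 and 61.6 CPM in TAM CM, against 283, 294 and 286 CPM in M0 CM. Its values were 263, 281 and 281 CPM in M2 CM and 174, 159.6 and 177 CPM in M1 CM. The 3 TAM CM libraries lay far below the rest, and the M2 CM libraries just below those of M0 CM. Elovl6 fell 4.87-fold in TAM CM (log2 fold change -2.28, SE 0.04; edgeR quasi-likelihood adjusted p = 7.23e-42) and 1.69-fold in M1 CM. The M2 CM difference from M0 CM was -0.06 (SE 0.04; edgeR quasi-likelihood adjusted p = 0.168).

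The delta-9 desaturases fell unequally. Scd2 (ENSMUSG00000025203, chromosome 19, 44293674 to 44306864) was the highest of the 10 genes per length of exon in M0 CM, and had the largest fold of the 10 in TAM CM. It was at 207, 193 and 209 CPM in TAM CM and at 1461, 1565 and 1406 CPM in M0 CM. In M2 CM it was at 1210.4, 1219.6 and 1279.8 CPM, and in M1 CM at 888, 846 and 913 CPM. The groups did not overlap. Scd2 fell 7.28-fold in TAM CM (log2 fold change -2.86, SE 0.04; edgeR quasi-likelihood adjusted p = 1.74e-32), a log2 fold change at percentile 0.834 of all genes tested, counted from the lowest. In the same comparison Fads2 was at percentile 1.38, Acss2 at 1.52, Elovl6 at 1.81 and Scd1 at 6.40. Acly and Fasn were at 12.1, Acaca at 13.0, Fads1 at 25.5 and Me1 at 64.3. Scd2 also fell in M2 CM (log2 fold change -0.26, SE 0.04) and in M1 CM (-0.74, SE 0.04).

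Scd1 (ENSMUSG00000037071, chromosome 19, 44394455 to 44407879), the family member best known from liver and fat, was at 174, 169 and 176 CPM in TAM CM and 430.2, 449.7 and 412 CPM in M0 CM. The M2 CM libraries had 361, 354 and 365 CPM and the M1 CM libraries 356, 350.0 and 357 CPM, and these groups overlapped each other. Scd1 fell 2.49-fold in TAM CM (log2 fold change -1.32, SE 0.03; edgeR quasi-likelihood adjusted p = 1.13e-35). It also fell in M2 CM (-0.26, SE 0.03) and in M1 CM (-0.28, SE 0.03). Reads shared between near copies of this family could be split by the counting. The other copies were low, with Scd3 and Scd4 each under 1 CPM on average in every group.

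Fads2, the delta-6 desaturase (ENSMUSG00000024665, chromosome 19, 10062765 to 10101746), was at 33.2, 34.6 and 37.3 CPM in TAM CM, against 194, 203 and 189 CPM in M0 CM. It had 194, 208 and 199 CPM in M2 CM and 131, 129.8 and 134 CPM in M1 CM. The M2 CM and M0 CM libraries overlapped. Fads2 fell 5.57-fold in TAM CM (log2 fold change -2.48, SE 0.04; edgeR quasi-likelihood adjusted p = 2.94e-42) and 1.48-fold in M1 CM.

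Fads1, the delta-5 desaturase (ENSMUSG00000010663, chromosome 19, 10182888 to 10196877), lies on the same chromosome and moved much less. Its levels were 160.3, 171 and 168 CPM in TAM CM, 184, 185 and 193 CPM in M2 CM, 214, 220.1 and 217 CPM in M1 CM, and 229.6, 233 and 223 CPM in M0 CM. Fads1 fell 1.37-fold in TAM CM (log2 fold change -0.46, SE 0.03; edgeR quasi-likelihood adjusted p = 6.4e-17), and it fell in M2 CM too (-0.28, SE 0.03). The M1 CM libraries lay below those of M0 CM with no overlap, but the difference of -0.07 (SE 0.03) was not called (edgeR quasi-likelihood adjusted p = 0.0585). Over the alternatives tried its adjusted p ran from 0.000338 to 1, and it passed in 6 of 20. The alternatives include a test against a 1.5-fold change, which asks for more than a difference.

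**Figure D2:**
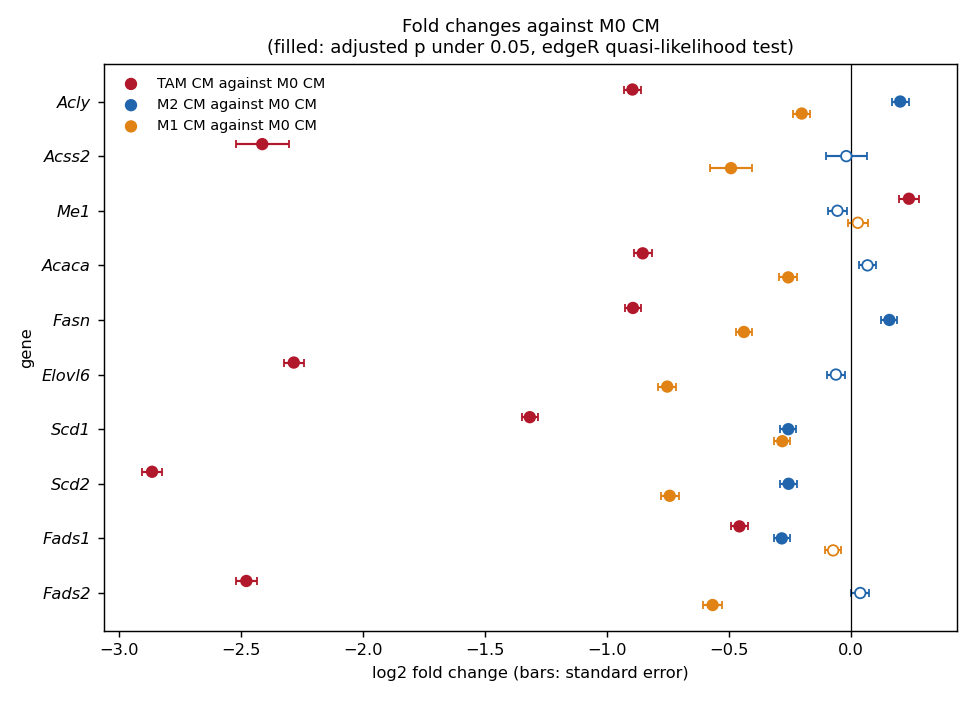
Log2 fold change against M0 CM (horizontal axis) of each enzyme gene (vertical axis) in TAM CM, M2 CM and M1 CM, with SE bars; filled points have an adjusted p under 0.05. The TAM CM points reach -2.86 for Scd2, while the M2 CM points stay between -0.28 and 0.20.

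M1 CM against M0 CM asks how the cells differ in medium from macrophages given interferon-gamma. Of the 10 enzyme genes 8 fell, and Fads1 and Me1 were not called. No member rose by edgeR's quasi-likelihood test, with a count of 0 also at an unadjusted p under 0.05 and by DESeq2. Among all genes tested, 25.6% were lower and 27.7% higher. Without TMM factors (library sizes alone) that split was 4626 lower and 3219 higher, against 3719 lower and 4023 higher. The folds of the enzyme genes were largest for Elovl6 (-0.75, SE 0.04) and Scd2, and their median was -0.36, beside 0.01 for all genes tested. Values did not overlap for 9 of the 10, as for 58.8% of all genes. In the M1 CM group replicate 2 had the lowest value for 9 of the 10 genes. Without it 8 genes still fell against M0 CM.

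M2 CM against M0 CM gave small differences in both directions. Acly and Fasn rose, Scd1, Scd2 and Fads1 fell, and 5 genes were not called. Across all genes 21.0% were higher and 18.5% lower. With library sizes alone, 2201 genes were higher and 3653 lower, against 3042 and 2681 with TMM factors. The largest of the fold changes was -0.28 (Fads1), and 7 of the 10 did not overlap, as for 49.5% of all genes tested. None of the 10 passed a test against a 1.5-fold change. With library sizes alone Elovl6 and Me1 were also lower, making 5 lower, and with a filter of at least 5 CPM Elovl6 was, making 4.

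TAM CM was also set against the other macrophage media. Against M2 CM, 9 of the enzyme genes fell and Me1 rose, where 34.1% of all genes were lower and 34.3% higher. The median of the 10 was -1.08 and the largest fall was that of Scd2, at -2.61 (SE 0.04). Against M1 CM, again 9 fell and Me1 rose, where 34.4% of all genes were lower and 32.8% higher. Here the median was -0.86, and Fads2 had a log2 fold change of -1.91 (SE 0.04). The rise of Me1 was 1.23-fold against M2 CM and 1.16-fold against M1 CM.

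M2 CM against M1 CM compares SCC7 cells in the media of the cytokine-treated macrophages. Of the enzyme genes 7 rose in M2 CM, where 27.8% of all genes were higher, and Fads1 alone fell, where 28.4% were lower. Elovl6 rose 1.61-fold (log2 fold change 0.69, SE 0.04) and Fads2 1.52-fold. Fads1 differed in direction, at 188 ± 4.79 CPM in M2 CM and 217 ± 2.84 CPM in M1 CM. Scd1 (0.02, SE 0.03) and Me1 were not called, although Me1 was also lower without M1 CM replicate 2 (edgeR quasi-likelihood adjusted p = 0.0107). Its adjusted p ran up to 1 over the alternatives, which include a test against a 1.5-fold change.

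All 10 genes differed across the 4 media by edgeR's quasi-likelihood F test, as did 83.5% of all genes tested. The order of the levels was not the same for every gene. M0 CM was highest for Acss2, Elovl6, Scd1, Scd2 and Fads1, and M2 CM for Acly, Acaca, Fasn and Fads2. Neighbours in that order without a called difference were M2 CM and M0 CM for Acss2, Acaca, Elovl6 and Fads2, M2 CM and M1 CM for Scd1, M1 CM and M0 CM for Fads1, and, for Me1, both M1 CM and M0 CM and M2 CM and M0 CM. Within groups the coefficient of variation ran from 1.02% (Scd1 in M1 CM) to 17.4% (Acss2 in M1 CM), with a median of 3.65%. The genes also tended to move together by library in M0 CM and TAM CM, and less so in M2 CM. M0 CM replicate 2 was highest in its group for 8 of the 10, while replicate 1 was lowest for 4 and replicate 3 for 5. In M2 CM replicate 1 was lowest for 5 and replicate 3 highest for 5. TAM CM replicate 2 was lowest for 7 and replicate 3 highest for 7. The 10 genes are thus not to be read as independent of each other, though the same was not counted for other genes.

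To compare levels between genes, CPM was divided by the length of the gene's merged exons in kb. Scd2 had the highest level per length in M0 CM, at 270.4 ± 14.8 CPM per kb, and Acss2 the lowest, at 3.10 ± 0.130 CPM per kb. In TAM CM the order at the top changed, with Fasn at 53.7 ± 2.23, Acly at 43.7 ± 2.35 and Scd2 at 37.1 ± 1.60 CPM per kb. Scd1, at 35.3 ± 0.796 CPM per kb, and Fads1, at 34.6 ± 1.12, were close behind. Fads2 was at 10.6 ± 0.630 CPM per kb in TAM CM and 59.3 ± 2.29 in M0 CM.

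**Figure D3:**
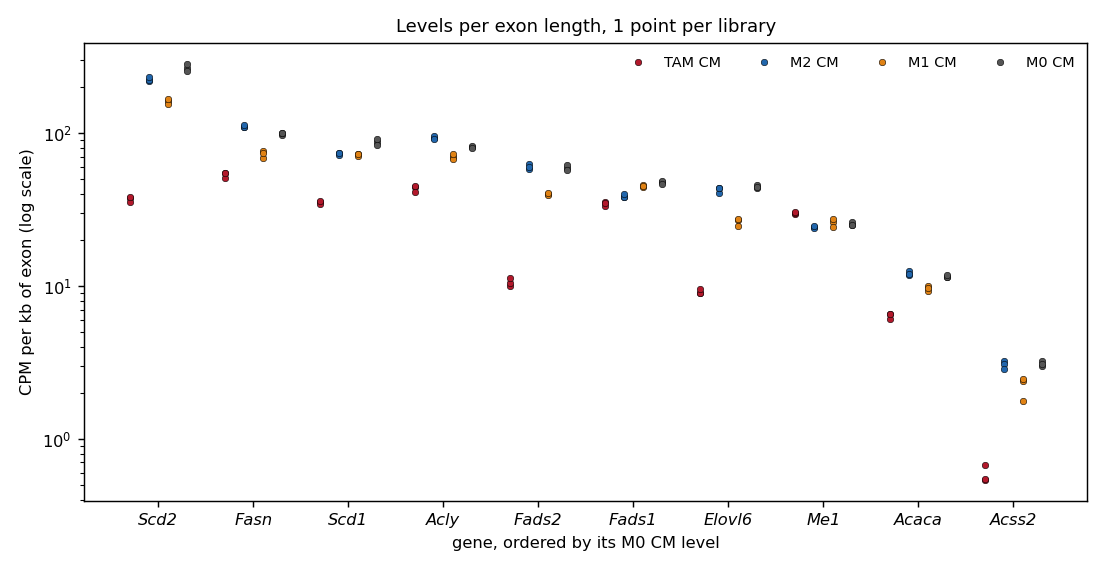
Level per exon length (CPM per kb, log axis) of the 10 enzyme genes, ordered by their M0 CM level, with 1 point per library and a colour for each of TAM CM, M2 CM, M1 CM and M0 CM. Scd2 averages 37.1 CPM per kb in TAM CM and 270.4 CPM per kb in M0 CM, while Fads1 lies between 34.6 and 47.5 CPM per kb on average in all 4 media.

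Ratios within a library do not depend on the scaling between libraries. Scd1 had 0.841, 0.874 and 0.843 counts for each count of Scd2 in the TAM CM libraries, 0.298, 0.291 and 0.285 in M2 CM, 0.401, 0.414 and 0.391 in M1 CM, and 0.294, 0.287 and 0.293 in M0 CM. TAM CM stood apart, M1 CM was next, and M2 CM and M0 CM overlapped. An exact permutation test of the F statistic over the 4 groups (369600 assignments of the 12 libraries) gave p = 0.000649, or 0.000974 adjusted over the 3 ratios tested. Of all genes tested, 83.5% differed across the 4 media, and ratios of other gene pairs were not tested. Low p-values and groups without overlap therefore do not set these 3 ratios apart from others.

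The ratio of Fads1 to Fads2 counts was 4.83, 4.93 and 4.50 in TAM CM, 0.951, 0.892 and 0.969 in M2 CM, 1.63, 1.70 and 1.62 in M1 CM, and 1.18, 1.14 and 1.18 in M0 CM. No groups overlapped. Its exact permutation p was 6.49e-05, the smallest this design can give, or 0.000195 adjusted. For Acss2 to Acly, the pair of acetyl-CoA sources, the ratio averaged 0.0258 ± 0.00301 in TAM CM, 0.0630 ± 0.00317 in M2 CM, 0.0599 ± 0.00873 in M1 CM and 0.0734 ± 0.00315 in M0 CM (SD, n = 3 each). The exact permutation p was 0.00123, also after adjustment.

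**Figure D4:**
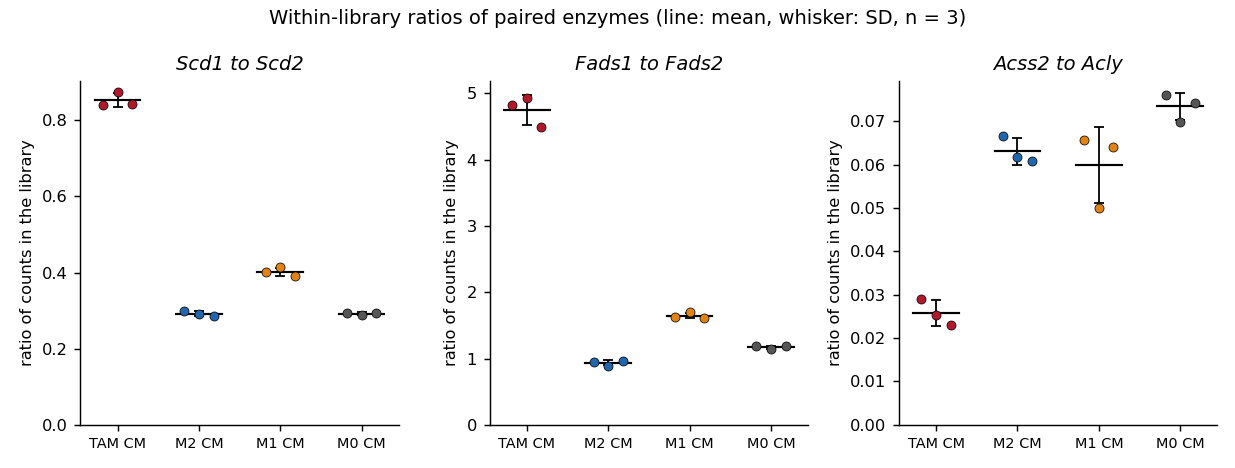
Ratio of counts within each library for Scd1 to Scd2, Fads1 to Fads2 and Acss2 to Acly (vertical axes from 0) in TAM CM, M2 CM, M1 CM and M0 CM; points are libraries, lines means and whiskers SD of 3. The mean of Fads1 to Fads2 is 4.75 in TAM CM and 1.17 in M0 CM, and that of Acss2 to Acly is lowest in TAM CM.

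The profiles of the 10 genes fell close together for some and far apart for others. Likeness was taken as the root mean square difference of log2 CPM over the 12 libraries, each gene centred on its own mean, and is a description. Acly and Acaca were the closest pair of the 10, at 0.0741 log2 units, and Acaca and Fasn were at 0.102. Elovl6 and Fads2 were at 0.147, and Scd2 and Fads2 at 0.152. Scd1 and Scd2 differed by 0.633, and Fads1 and Fads2 by 0.898.

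Among 10408 other genes of at least 5 CPM, those nearest to Scd2 were Hmgcs1 (0.0917), Stard4 and Insig1, which act in sterol synthesis, sterol transport and SREBP retention. Nearest to Fads2 were Nsdhl (0.0781), Stard4 and Pmvk, and nearest to Acss2 were Pmvk (0.119), Mvd and Nsdhl, all but Stard4 genes of the sterol pathway. Elovl6 was nearest to Tfeb (0.0818), a transcription factor of lysosomal genes, and Cyp51 of sterol synthesis (0.0909) was also among its 3 nearest. For Acly the list was Rnf187 (0.0598), Apbb2 and Msmo1, for Acaca it was Ppp2r5d (0.0341), Mlf2 and Cdk2ap1, and for Fasn it was Met (0.0426), Gtse1 and Polr2b. Scd1 lay nearest to Atp8b2 (0.0509), Zzef1 and Ndst2, and Me1 to Ptprg (0.0379), Bod1l and Fubp3. Among the 3 nearest to Fads1 were D430042O09Rik (0.0493) and Dock5.

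Other lipid genes give the setting of the 10. The counts of each list are to be read beside the shares of all genes tested. Against M0 CM, 34.9% of all genes were lower and 35.1% higher in TAM CM. These shares were 18.5% and 21.0% in M2 CM, and 25.6% and 27.7% in M1 CM. Of 16 tested genes of sterol synthesis and uptake, 16 fell in TAM CM against M0 CM, with a median of -2.14. Hmgcs1, which forms HMG-CoA, was at 32.5 ± 0.808 CPM in TAM CM and 231 ± 4.42 CPM in M0 CM. In M2 CM 3 of the 16 rose and 2 fell (median -0.02), with Hmgcs1 not called at -0.06 (SE 0.04). In M1 CM 14 fell and 1 rose (median -0.52).

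Of the genes that control lipogenesis, 4 of 15 were higher in TAM CM and 7 lower, with a median of -0.05. Across all genes tested 35.1% were higher and 34.9% lower. Srebf1, which encodes an SREBP that drives fatty acid synthesis genes, was at 50.4 to 53.4 CPM in TAM CM and 171 to 181 CPM in M0 CM. Srebf2, the SREBP of sterol genes, was at 241 ± 3.91 CPM in TAM CM and 684 ± 17.7 CPM in M0 CM. Insig1, which retains SREBPs and is itself their target, was at 25.2 ± 1.59 CPM in TAM CM and 147 ± 6.28 CPM in M0 CM. All 3 were called lower by edgeR's quasi-likelihood test. Scap, the SREBP escort, was at 84.4 ± 4.67 CPM in TAM CM and 87.5 ± 2.77 CPM in M0 CM (-0.05, SE 0.04), not called.

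Mid1ip1, a partner of acetyl-CoA carboxylase, rose to 51.8 ± 2.10 CPM in TAM CM, against 26.5 ± 0.315 CPM in M0 CM, and Mlxip, a glucose-sensing factor, rose by 0.37 (SE 0.05). Mlxipl, its lipogenic relative, had 0 counts in all libraries, and Nr1h3 and Thrsp were under 1 CPM in every group and were not tested. In M1 CM Srebf1 (-0.51), Insig1 (-0.70) and Srebf2 (-0.13) were lower. In M2 CM Srebf1 (-0.26) and Insig1 (-0.33) were lower, and Srebf2 was not called. LXR targets outside the 10, 5 in all, gave 2 lower in TAM CM (median -0.38), with Abca1, a cholesterol exporter, not called at 2.61 ± 0.497 CPM in TAM CM and 3.08 ± 0.636 CPM in M0 CM. In M2 CM 2 of the 5 fell, and in M1 CM 2 rose.

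Supply of citrate and NADPH changed gene by gene in TAM CM, where 3 of 13 rose, 4 fell and the median was 0.01. Across all genes tested 35.1% rose and 34.9% fell. Idh1, the cytosolic isocitrate dehydrogenase, was at 28.4 ± 0.373 CPM in TAM CM and 119 ± 2.98 CPM in M0 CM. Slc25a1, the mitochondrial citrate carrier, was at 41.0 ± 0.747 CPM in TAM CM and 77.2 ± 1.85 CPM in M0 CM, and Mdh1, the cytosolic malate dehydrogenase, also fell (-0.85, SE 0.04). G6pdx, which starts the pentose phosphate pathway, rose to 335 ± 19.2 CPM in TAM CM, against 207 ± 3.30 CPM in M0 CM. In M2 CM 3 of the 13 rose and 2 fell, and in M1 CM 4 rose and 6 fell.

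The other elongases, desaturases and chain extension genes went both ways, with 6 of 14 higher and 7 lower in TAM CM. Across all genes tested 35.1% were higher and 34.9% lower. Fads3, the third gene of the Fads family, rose to 182 ± 2.09 CPM in TAM CM, against 71.9 ± 2.98 CPM in M0 CM, the opposite direction to Fads1 and Fads2. Elovl4 rose to 38.6 ± 1.95 CPM, against 16.2 ± 0.289 CPM in M0 CM, and Tecr, the reductase that ends each elongation round, fell to 69.8 ± 1.84 CPM, against 133 ± 3.77 CPM in M0 CM. Elovl3 had 145 counts in the TAM CM libraries together and 0 in those of M0 CM, at least 51.8-fold higher when 3 counts are taken as the floor of the M0 CM group. With genes at 0 counts set at such bounds the median of the list was -0.11. In M2 CM 6 rose and 2 fell, and in M1 CM 4 rose and 1 fell.

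**Figure D5:**
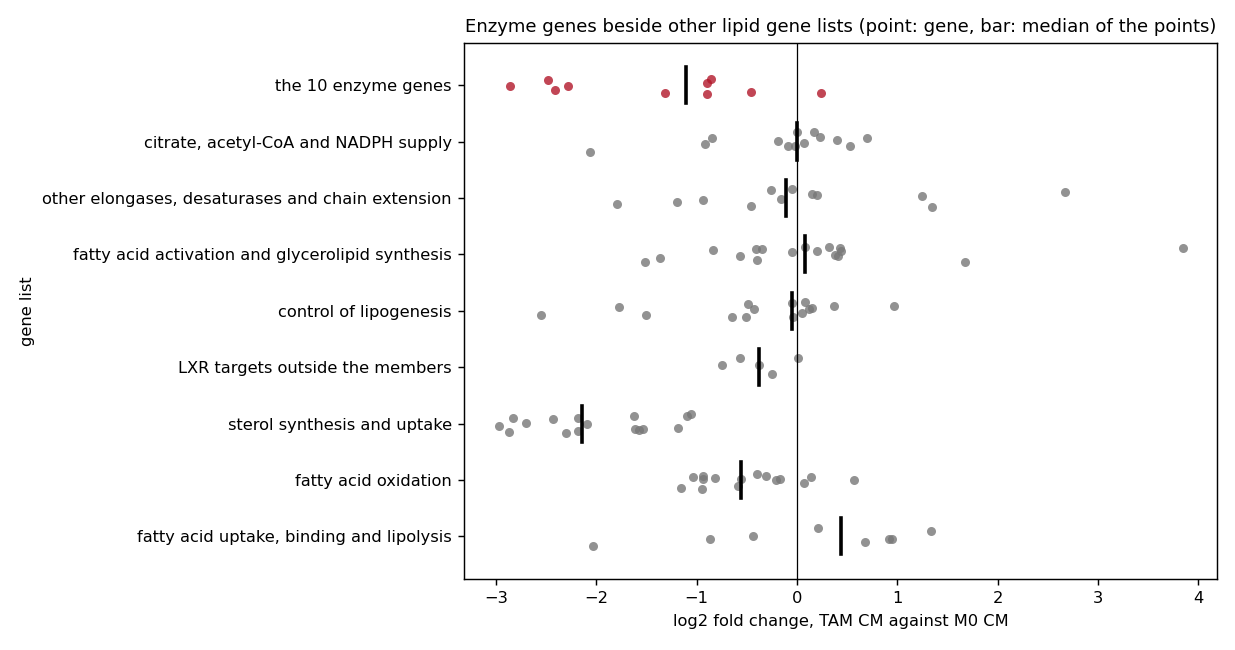
Log2 fold change in TAM CM against M0 CM (horizontal axis) of the tested genes of each lipid list (vertical axis), with the median of the points as a bar; Elovl3 and Scd4, at 0 counts in 1 of the groups, are left out. The bar of the 10 enzyme genes is at -1.11 and that of sterol synthesis and uptake at -2.14, where all genes tested have a median of 0.00.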

How the data were processed

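The table deposited by the authors holds unscaled read counts, 1 column for each of 12 libraries and 1 row per Ensembl gene. Trizol extraction and an Illumina mRNA library protocol are stated per the labels' protocols. The submitters' processing notes name HISAT2 2.0 and mm10. Which counter, annotation release and strand setting were used is not stated there or in the labels. Symbols, coordinates and exon lengths come from GENCODE M21 (GRCm38) by Ensembl identifier (55141 of 55487 matched), which may not be the authors' release.

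The analysis used edgeR 4.0.16 in R 4.3.3: filterByExpr (14509 genes kept; those removed held at most 0.0876% of a library's counts), TMM factors, and glmQLFit (robust) with a mean for each of 4 groups. Each of 6 comparisons used glmQLFTest, with Benjamini-Hochberg adjustment at 0.05. SE was taken as the absolute log2 fold change divided by the root of F. Libraries were grouped by title. Deviations of same-numbered libraries of different groups had small correlations, from -0.03 to 0.05 over 18 pairs, with a median of 0.015. For different-numbered libraries the median was -0.0077 over 36 pairs. Yet 10 of the 12 samples correlated best with their own number. No label gives a pairing, and the numbers were used only in an alternative with a replicate block. No pair of libraries within a group agreed within sampling noise (chi-square over degrees of freedom 2.00 to 5.17). Mitochondrial genes held 1.64% to 1.81% of counts.

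The members, the other gene lists, the tests and the alternatives were chosen with earlier results of these data known. Genes other than the members were named by a rule: up to 4 of each list with the smallest adjusted p in a comparison with M0 CM, a panel of 12 control genes, and the 3 nearest profiles of each member; a few of these are not reported here. Alternatives tried were the Wald test of DESeq2 1.42.0, its size factors in edgeR, library sizes alone, other filters, pairwise fits, a replicate block, glmTreat against a 1.5-fold change, a pseudocount of 1 for the ratios, and each library left out in turn. The scripts for the test and the ratios were tested on simulated data.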

Additional observations from a re-analysis of the deposited data

How the results depend on the processing

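For the 10 enzyme genes in TAM CM, the 9 lower were called against M0 CM, M1 CM and M2 CM under every setting except the test against a 1.5-fold change (glmTreat). Under glmTreat 8, 8 and 6 were lower in TAM CM against M0 CM, M2 CM and M1 CM, and 0 of the 10 were higher against each. It left 2 lower in M1 CM against M0 CM, 0 higher and 0 lower in M2 CM against M0 CM, and 1 higher and 0 lower in M2 CM against M1 CM. Of all genes, glmTreat called 1871 higher and 1941 lower for TAM CM against M0 CM, 1266 and 1716 against M1 CM, and 1756 and 1666 against M2 CM. For M1 CM against M0 CM it called 920 and 452, for M2 CM against M0 CM 201 and 175, and for M2 CM against M1 CM 387 and 1026. It calls fewer by construction, since the fold must exceed a minimum.

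With library sizes alone, 5 of the 10 were lower in M2 CM against M0 CM in place of 3. With a filter of at least 5 CPM 4 were, and 2 were lower in M2 CM against M1 CM in place of 1. Leaving out 1 library at a time gave 1 to 2 here, with 2 without M1 CM replicate 2. The cause was not tested. Values that changed sign were not called in either fit. Me1 in M1 CM against M0 CM was -0.040 with library sizes alone, -0.0091 without M1 CM replicate 3 and up to 0.068 without other libraries, and Fads2 in M2 CM against M0 CM was -0.019 with library sizes alone. Acss2 in M2 CM against M0 CM was 0.013 without M0 CM replicate 1 and 0.015 without M2 CM replicate 3, and as low as -0.059 without other libraries. Fads1 in M1 CM against M0 CM passed with DESeq2 size factors (adjusted p = 0.0309, edgeR), library sizes alone (0.000338), the 5 CPM filter (0.0349), DESeq2 (0.0479) and without M0 CM replicate 3 (0.0441).

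By the labels, same-numbered libraries share only a number. With the replicate block in the model Fads1 was also called lower in M1 CM (edgeR adjusted p = 0.0483), making 9 lower in place of 8, and 10 of the 12 samples correlated best with their own number. The other counts of the 10 genes were the same with the block. The 3 ratios kept their direction and their call under every alternative tried. Acss2 in TAM CM rests on the lowest counts of the 10 genes.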

Other observations

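Genes of fatty acid storage and uptake went both ways in TAM CM, and most genes of fatty acid oxidation fell. Against M0 CM, 35.1% of all genes tested were higher and 34.9% lower in TAM CM. These shares were 21.0% and 18.5% in M2 CM, and 27.7% and 25.6% in M1 CM. Of 17 tested genes of fatty acid activation and glycerolipid synthesis, 8 rose and 7 fell in TAM CM against M0 CM (edgeR's quasi-likelihood test), with a median log2 fold change of 0.08 beside 0.00 for all genes tested. Plin2, which coats lipid droplets, was at 680.5 to 697 CPM in TAM CM and 207 to 225 CPM in M0 CM. Gpat3, a glycerol-phosphate acyltransferase, was at 35.6 ± 2.78 CPM in TAM CM and 2.47 ± 0.363 CPM in M0 CM (SD, n = 3 each). Acsl3, which activates fatty acids at lipid droplets, fell to 24.7 ± 2.19 CPM in TAM CM, against 63.6 ± 1.36 CPM in M0 CM. In M2 CM 7 of the 17 rose and 4 fell, and Plin2 fell to 168 ± 7.31 CPM. In M1 CM 8 rose and 5 fell, and Lpin2, a phosphatidate phosphatase, rose to 166 ± 5.26 CPM, against 79.9 ± 1.85 CPM in M0 CM.

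Of 15 tested genes of fatty acid oxidation, 11 fell and 2 rose in TAM CM against M0 CM, with a median of -0.56. Among all genes tested, 34.9% were lower and 35.1% higher in TAM CM. Cpt1a, which admits long-chain fatty acids to mitochondria, was at 73.6 ± 2.61 CPM in TAM CM and 141 ± 4.46 CPM in M0 CM, and Acadm, the medium-chain acyl-CoA dehydrogenase, had a log2 fold change of -1.04 (SE 0.05). In M2 CM 5 of the 15 fell and 1 rose, and in M1 CM 9 fell and 3 rose. The shares of all genes lower and higher were 18.5% and 21.0% in M2 CM, and 25.6% and 27.7% in M1 CM. Of 8 tested genes of uptake, binding and lipolysis, 5 rose and 3 fell in TAM CM (median 0.44). Slc27a1, a fatty acid transporter, was at 327 to 348 CPM in TAM CM and 173 to 178 CPM in M0 CM, and Pnpla2, the triglyceride lipase of lipid droplets, at 57.9 ± 0.809 CPM in TAM CM and 30.5 ± 0.573 CPM in M0 CM. In M2 CM 3 of the 8 rose and 3 fell, and in M1 CM 3 rose and 2 fell.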
